A study of Saccharomyces cerevisiae with 2 samples.

Results

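The INO80 complex of the budding yeast *Saccharomyces cerevisiae* is described here through the 10 genes of its subunits that are not shared with the related complexes SWR1 and NuA4: *INO80*, *ARP5*, *ARP8*, *IES1* to *IES6* and *NHP10*. They are 10 of the 5094 genes that the barcode array probes, found by the gene symbol that the platform annotation gives for each probe. The set, and its split into the Nhp10 module and the rest, was chosen with the ratios of these arrays known, so the ratios below are a description and carry no test. In the genetic interaction mapping (GIM) screen, a pool of barcoded strains carrying DAmP alleles, which lower a gene's mRNA, was crossed with a query deletion strain, and haploid double mutants, a mix of strains derived from BY4742/BY4741, were grown under G418 and nourseothricin. Genomic DNA was extracted, and the barcodes of the query pool (Cy3) and of a reference GIM pool (Cy5) were hybridised to the same 2-colour array. There were 2 arrays, from screens that the series text calls independent, both with the dyes in the same orientation, and no swapped array was used here. The titles name *PIH1* as the deleted query gene, whereas the descriptions and source names give *RSA1*.

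Each value is taken as the log2 of the query pool's signal divided by that of the reference pool. The array's median was subtracted, and the probes of a gene were averaged. Below 0, double mutants were scarcer in the query pool. The sources state neither the base of the logarithm nor the direction, and the fold sizes below assume base 2. The direction is likely: 30 of 34 genes within 50 kb of *PIH1* had a negative ratio (median -1.01), and genes linked to a query locus are scarce among double mutants because few recombinants form. *PIH1* itself went against this and was positive on both arrays (mean 1.01 ± 0.01, SD, n = 2). Within 50 kb of *RSA1*, 18 of 42 genes were negative (median 0.04). Ratios spread more widely on array 2 than on array 1, with a median absolute deviation, scaled as an SD, of 0.63 against 0.35 over all probes. A value on both arrays existed for 4196 genes, and 4048 of them lay over 100 kb from both possible query loci, none of the 10 subunit genes being left out that way. The labels name no separate cultures, so the spread between the arrays may be partly technical. Probes name a gene, not an allele, so a DAmP allele cannot be told from another allele of the same gene.

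INO80 is an ATP-dependent chromatin remodeller that slides nucleosomes and acts in transcription, replication and DNA repair. Its large ATPase, Ino80, is the scaffold on which separate modules assemble: the Rvb1 and Rvb2 ATPases with Ies2 and the Arp5-Ies6 pair on the ATPase domain, the Arp8 module (Arp8, Arp4, actin, Taf14 and Ies4) on a helical region next to it, and the Nhp10 module (Nhp10, Ies1, Ies3 and Ies5) on the N-terminal part. Pih1 belongs to R2TP, an HSP90 co-chaperone that contains the same Rvb1 and Rvb2 and takes part in the assembly of large protein and RNA-protein complexes.

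The 8 measured subunit genes went both ways. *INO80* and *IES4* were low on both arrays, *IES2*, *IES5*, *NHP10*, *IES3* and *ARP8* were positive on both, and *IES1* was negative on array 1 and positive on array 2. *ARP5* and *IES6* had probes (2 and 4) but no listed value on either array, so nothing is known here of the Arp5-Ies6 pair, which couples ATP hydrolysis to nucleosome sliding. Of the 24 probes of the 10 genes, 13 (54.2%) had a value, the same 13 on both arrays, whereas 67.1% of all 13078 probes with a named gene had a value on both. *INO80*, *IES2*, *ARP8*, *IES3* and *IES1* each rested on 1 of their 2 probes, as did 20.6% of the 2956 tested genes with 2 probes.

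*INO80*, the gene of the ATPase itself, stood at -2.15 on array 1 and -2.32 on array 2. Its mean was -2.24 ± 0.12 (SD, n = 2), or 4.71-fold lower in the query pool, the lowest of the 8. *IES2*, which encodes an activator of the ATPase, stood at 1.55 on array 1 and 3.85 on array 2. Its mean of 2.70 ± 1.63 (SD, n = 2), or 6.50-fold higher, was the highest of the 8, so the ends of the range were held by the ATPase and a subunit that binds it. The difference between *IES2* and *INO80* was 3.70 on array 1 and 6.17 on array 2.

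The Arp8 module was likewise split. *IES4*, a small subunit known as a target of the checkpoint kinases Mec1 and Tel1, stood at -1.95 on array 1 and -1.76 on array 2 (mean -1.85 ± 0.14, SD, n = 2). Its 2 probes read -2.05 and -1.85 on array 1 and -1.93 and -1.58 on array 2. Both probes were thus low in both screens, with gaps of 0.19 and 0.35 that can be set beside median gaps of 0.15 and 0.28 over the tested genes with 2 probes. *ARP8*, encoding the actin-related protein after which the module is named, stood at 0.34 on array 1 and 2.51 on array 2 (mean 1.42 ± 1.53, SD, n = 2). Its value lay 2.29 above that of *IES4* on array 1 and 4.26 above on array 2.

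Within the Nhp10 module, *NHP10*, which encodes an HMG-box protein that binds DNA, was the best covered of all members, with 4 probes. These read 0.60, 0.82, 0.98 and 1.04 on array 1 and 2.61, 3.37, 3.47 and 3.69 on array 2, all positive. The gaps between its highest and lowest probe, 0.45 and 1.07, can be set beside median gaps of 0.27 and 0.55 over the tested genes with 4 probe values. The probes gave gene values of 0.86 and 3.28 (mean 2.07 ± 1.71, SD, n = 2; 4.20-fold higher). *IES5* stood at 1.23 on array 1 and 3.45 on array 2 (mean 2.34 ± 1.57), and its 2 probes differed by 0.02 and 0.03. *IES3* stood at 0.52 and 3.29 (mean 1.91 ± 1.96). *IES1* stood apart from these with -0.35 on array 1 and 1.20 on array 2 (mean 0.43 ± 1.10), and its sign thus rests on array 2.

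**Figure D1:**
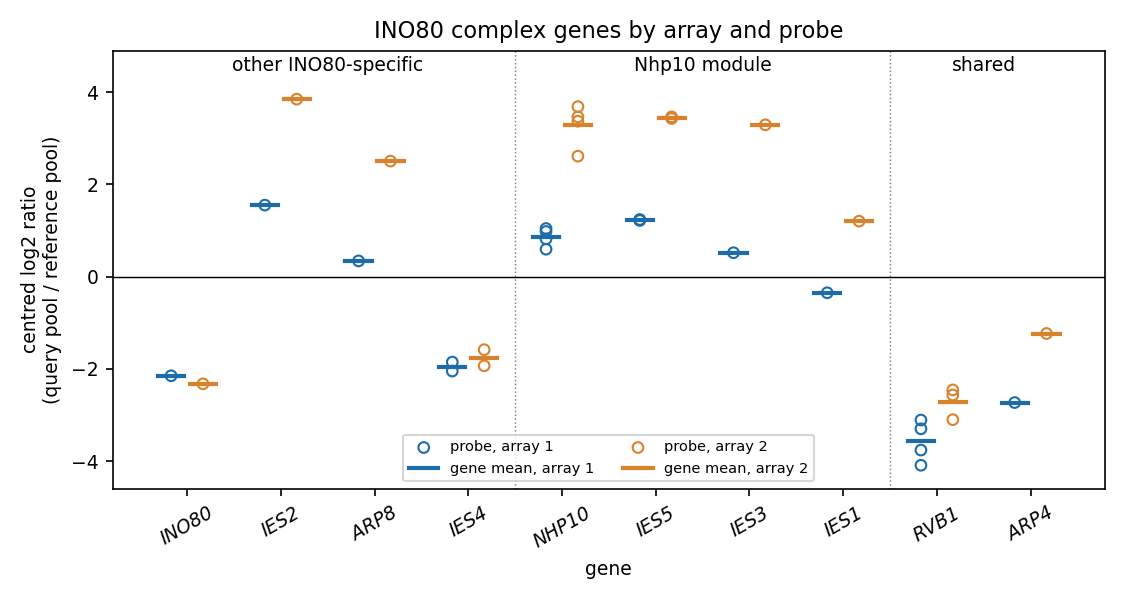
Centred log2 ratio (vertical axis) of the 8 measured INO80-specific subunit genes and of the 2 measured shared subunit genes, with open circles for single probes and bars for the mean of a gene on array 1 (blue) and array 2 (orange). *INO80* and *IES4* lie near -2 on both arrays, whereas *IES2*, *ARP8* and the Nhp10 module genes lie higher on array 2 than on array 1.

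The 4 Nhp10 module genes had a mean ratio of 0.56 on array 1 and 2.81 on array 2, against -0.55 and 0.57 for the 4 other measured genes. The difference was 1.12 on array 1 and 2.24 on array 2, or 1.68 ± 0.79 (SD, n = 2). The groups overlapped on both arrays: *IES2*, outside the module, exceeded every module gene on each array, and *ARP8* exceeded *IES1*. The difference therefore rested on *INO80* and *IES4*, whose joint mean was -2.05. *IES2* and *ARP8*, paired after their values were seen, had a mean of 2.06, above the module's mean of 1.69. An exact sign-flip test over 2 arrays cannot go below p = 0.5, and the comparison was chosen with these values known, so none was made.

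In order of their means the genes ran *INO80*, *IES4*, *IES1*, *ARP8*, *IES3*, *NHP10*, *IES5* and *IES2*. Neighbours in this order kept their order on both arrays except *IES3* and *NHP10*, which differed by 0.34 on array 1 and by -0.01 on array 2. The step from *IES4* to *IES1* was the widest, at 1.60 on array 1 and 2.96 on array 2. The top genes were close to each other: *IES2* lay 0.36 ± 0.06 above *IES5* (SD of the difference, n = 2), *IES5* 0.27 ± 0.15 above *NHP10*, and *IES3* 0.48 ± 0.43 above *ARP8*. *NHP10* and *IES3* differed by less than the SD of their difference (0.17 ± 0.25). Each of these 5 genes had an SD of 1.53 to 1.96 between arrays, and all were higher on array 2. The order was formed from the same 2 arrays, so its agreement between them is no independent check.

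At or below -1 on both arrays were 2 of the 8 genes, *INO80* and *IES4*, against 2.03% of the 4048 genes. At or above 1 on both were another 2, *IES2* and *IES5*, against 6.4% of genes. On array 2 alone, 6 of the 8 were at or above 1 (17.2% of genes), and on array 1 only *IES2* and *IES5* (6.92%). At or below -1 were *INO80* and *IES4* on each array, against 2.92% of genes on array 1 and 5.29% on array 2. Positive on both arrays were 5 of the 8 and 34.7% of genes, and negative on both 2 of the 8 and 33.9% of genes. The set was chosen from these values, so nothing is read from the shares. Limma was used as a linear model with variance shared across genes and Benjamini-Hochberg adjustment at 0.05. As centred, it called 0% of the 4048 genes in either direction, and so 0 of the 8. At an unadjusted p of 0.05 there were 678 of the 4048 genes, 4 of the 8 among them. This count and the calls after rescaling are given as a description as well, since they use the ratios that chose the genes. With both arrays brought to the same median absolute deviation, it called 2.3% of genes lower and 8.97% higher, with *INO80* and *IES4* among the lower and *IES2* and *IES5* among the higher ones. After quantile normalization it called 2.25% lower and 9.91% higher of 4038 genes, with *NHP10* added to the higher ones.

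Among the 8 genes, the arrays differed little for *INO80* and *IES4* and more for the other 6. From array 1 to array 2, *INO80* changed by -0.18 and *IES4* by 0.19, at percentiles 32.2 and 61.7 of that difference over the 4048 genes. The other 6 were higher on array 2 by 1.55 (*IES1*), 2.16 (*ARP8*), 2.22 (*IES5*), 2.30 (*IES2*), 2.43 (*NHP10*) and 2.77 (*IES3*). These 6 differences lay between percentiles 93.2 and 98.7, where the median gene differed by 0.03. The ratios of array 2 to array 1 were 1.08 for *INO80* and 0.90 for *IES4*, beside a median of 1.26 over the 82 genes at or below -1 on both arrays. For *IES2* and *IES5* they were 2.48 and 2.80, beside a median of 1.90 over the 259 genes at or above 1 on both. *NHP10*, *IES3* and *ARP8*, positive but below 1 on array 1, had larger ratios of 3.82, 6.34 and 7.33. *IES1* had a ratio of -3.44. On array 2, the more widely spread array, the 5 genes positive on both arrays lay further from 0. *IES4* lay slightly nearer to 0 there, *INO80* slightly further from it, and *IES1* changed sign. The part of the wider spread in these differences was not tested.

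By rank within an array, which no scaling of an array changes, *INO80* lay at percentile 0.445 on array 1 and 0.939 on array 2, and *IES4* at 0.618 and 2.0. *IES2* lay at percentiles 96.6 and 97.9, *IES5* at 94.8 and 97.1, *NHP10* at 91.8 and 96.8, *IES3* at 85.6 and 96.8 and *ARP8* at 79.4 and 94.8. These 5 lay at or above percentile 79.4 in both screens. *IES1* moved from percentile 12.7 on array 1 to 85.4 on array 2, the widest move of the 8.

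**Figure D2:**
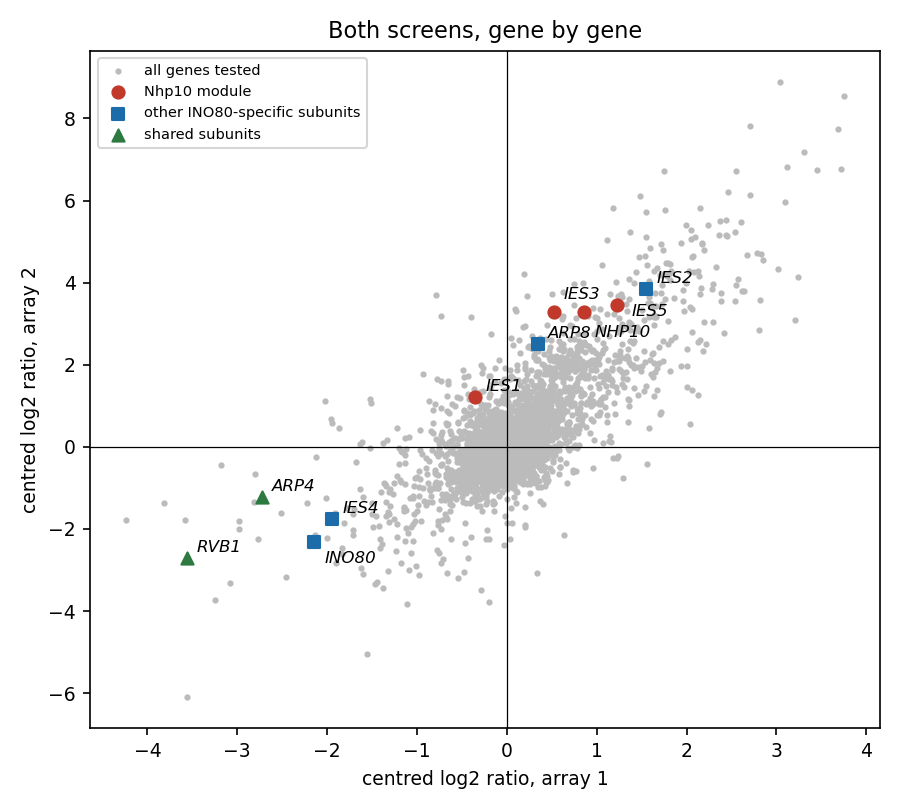
Centred log2 ratio on array 1 (horizontal axis) against array 2 (vertical axis) for the 4048 tested genes (grey), the Nhp10 module genes (red circles), the other INO80-specific subunit genes (blue squares) and the shared subunits (green triangles). *INO80* and *IES4* lie in the lower left with *RVB1* and *ARP4*, and *IES2* lies in the upper right beside *IES5*, *NHP10* and *IES3*.

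Of the 5 subunits that INO80 shares with other complexes, 2 were measured, and both were low. *RVB1*, an ATPase gene of INO80, SWR1 and R2TP, stood at -3.57 on array 1 and -2.71 on array 2 (mean -3.14 ± 0.61, SD, n = 2), with all its probe values at or below -2.46. *ARP4*, an actin-related protein gene of INO80, SWR1 and NuA4, stood at -2.73 and -1.23 (mean -1.98 ± 1.06) from 1 probe. *RVB2*, *ACT1* and *TAF14* had probes but no listed value. Of the 10 measured genes of the whole complex, *INO80*, *IES4*, *RVB1* and *ARP4* were thus at or below -1 in both screens, against the 2.03% of all genes given above, a share from which nothing is read for genes chosen on these values. *IES4* and *ARP4* belong to the Arp8 module, as does *ARP8*, which was positive.

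SWR1, the related remodeller that deposits the histone variant H2A.Z, had 7 of 11 listed genes measured. *HTZ1*, the H2A.Z gene, had no value on either array. The 7 had a median of -1.60 on array 1 and -1.22 on array 2, against 0.43 and 2.90 for the 8 INO80-specific genes. The median over the 4048 genes was 0.01 on array 1 and 0.00 on array 2. At or below -1 on both arrays were 4 of the 7, against 2.03% of the 4048 genes. These were *SWC3* (mean -2.68 ± 1.28, SD, n = 2), *ARP6* (-2.14 ± 0.01), *SWC5* (-1.63 ± 0.21) and *VPS71* (-1.41 ± 0.27). None of the 7 was at or above 1 on both, against 6.4% of genes. The list was chosen with earlier results of these data known, so nothing is read from these shares. *SWR1*, the ATPase gene, was named here after its value was seen because it is the closest counterpart of *INO80*. It stood at -0.47 on array 1 and 1.52 on array 2. By mean, *INO80* was thus the lowest of the measured INO80-specific genes and *SWR1* the highest of its list. On array 1, however, *SWR1* was negative like the other measured genes of its list. NuA4, the histone acetyltransferase that shares Arp4 and actin, had 5 of 9 genes measured with a median of -0.03. Like the INO80-specific genes it went both ways, with *EAF6* at -1.67 ± 0.35 and *EAF3* at -1.16 ± 0.11 (SD, n = 2), and *EAF7*, whose product partners with Eaf3, at 2.99 ± 1.40. The difference between these lists was not tested.

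Among 15 measured ATPase genes of the Snf2 family other than *INO80*, which also belongs to it, none was at or below -1 on both arrays. *ULS1*, of a DNA translocase that acts on SUMO-modified proteins, was at or above 1 on both (mean 2.97 ± 1.73, SD, n = 2), and the median of the list was 0.04. The 4 genes of inositol regulation, the process from which *INO80* takes its name, had a median of 0.39. One of them was beyond 1 on both arrays, *OPI1*, the repressor gene of the pathway, at 1.79 ± 0.51. The 8 core histone genes had a median of 0.21. Positive on both arrays were 2 of them (34.7% of the 4048 genes), negative on both 2 (33.9%) and at or below -1 on both none (2.03%). *HHF1*, a histone H4 gene, was at 2.05 ± 1.09. *HHF2*, the other histone H4 gene, named after its value was seen, went the other way at -0.42 ± 0.07. Of 6 measured damage and replication checkpoint genes, *MRC1*, a mediator of the replication checkpoint, was at 1.84 ± 0.28, and the kinase genes *MEC1* and *TEL1*, named for their link to Ies4 after their values were seen, stood at -0.52 ± 0.29 and 0.32 ± 0.19. In the R2TP list *TAH1*, also named after its value was seen, stood at -0.01 ± 0.04. *PIH1*, which lies in a region kept out of the counts over all genes, stood at 1.01 ± 0.01. *RVB1* was the only low one of the 3 measured, but *PIH1* is the query gene that the titles name, so its value is not comparable.

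**Figure D3:**
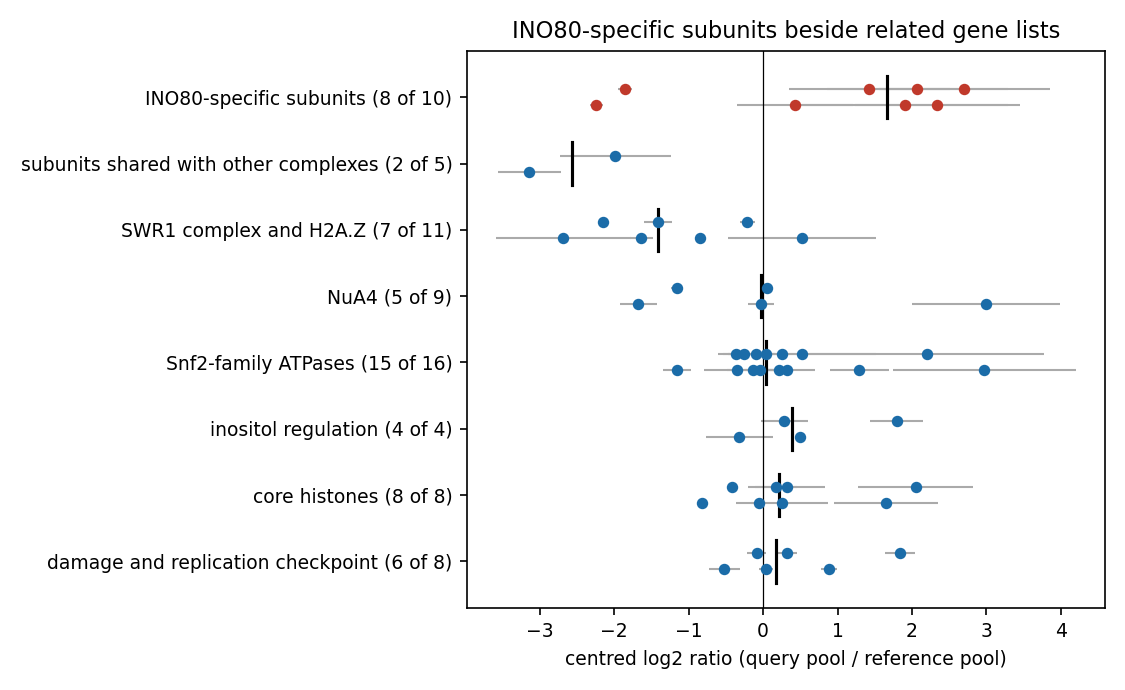
Centred log2 ratio (horizontal axis) of each measured gene in 8 lists, with points for the mean of the 2 arrays, grey lines joining both arrays and black bars for the median of the list. The INO80-specific genes (red) fall into a low pair and a higher group of 6, whereas 6 of the 7 measured genes of the SWR1 and H2A.Z list have a mean below 0. The H2A.Z gene *HTZ1* was not measured.

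Position on the chromosome was compared as well. The 8 measured genes lie on chromosomes IV (*NHP10*), V (*IES5*), VI (*IES1*), VII (*INO80*), XII (*IES3*), XIV (*IES2*) and XV (*ARP8* and *IES4*), away from the *PIH1* and *RSA1* loci. The nearest measured gene on each side was taken for each, and 14 of these 16 were the directly adjacent gene. The 16 neighbours had a median of 0.04, and 14 of them were not beyond 1 on both arrays. Over the 4048 genes, 2.03% were at or below -1 on both and 6.4% at or above 1 on both. Whether position plays a part was not tested. The low ratio of *IES4* was not shared by *MSB1* (0.06 ± 0.17, SD, n = 2) and *SPR1* (-0.37 ± 0.26) beside it, nor the high ratio of *IES2* by *RAP1* (-0.04 ± 0.14) and *PEX17* (0.16 ± 0.44). Beside *IES5*, *MET6* was positive on both arrays like the subunit gene (0.19 and 1.43, mean 0.81 ± 0.88), and *TSC11* stood at 0.21 ± 0.23. Beside *ARP8*, *RUP1* was also positive on both (0.40 ± 0.40), while *LSC1* stood at -0.19 ± 0.24. *FCF2* (0.15 ± 0.01) and *OSW2* (-0.09 ± 0.43) flanked *IES3*, and *HSP12* (0.35 ± 0.12) and *YFL012W* (-0.10 ± 0.12) flanked *IES1*.

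The exceptions were a neighbour of *INO80* and one of *NHP10*, each with the opposite sign to its subunit gene. *YGL149W*, a short open reading frame whose first bases overlap the 5′ end of *INO80* in the R64 annotation, stood at 1.55 on array 1 and 5.11 on array 2 (mean 3.33 ± 2.52, SD, n = 2). Its 2 probes read 1.12 and 1.98 on array 1 and 4.42 and 5.81 on array 2, so both were high in both screens. *NUT1*, on the other side of *INO80*, stood at 0.02 ± 0.06. *RMD1*, beside *NHP10*, stood at -1.23 on array 1 and -2.55 on array 2 (mean -1.89 ± 0.93), while *MCD1*, the cohesin gene on its other side, stood at -0.09 ± 0.05.

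**Figure D4:**
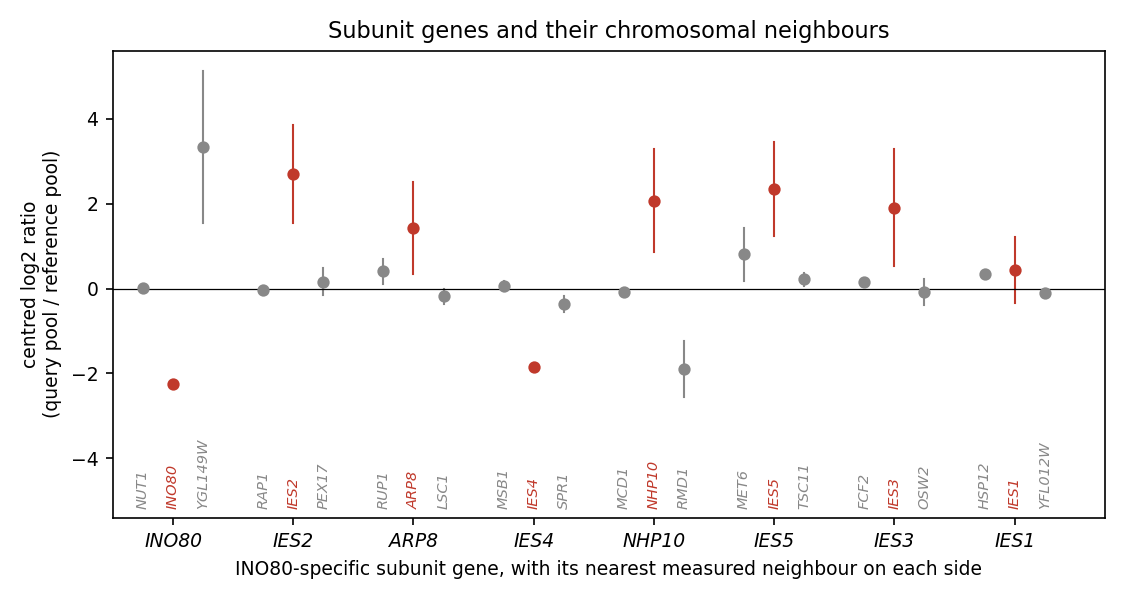
Centred log2 ratio (vertical axis) of each measured INO80-specific subunit gene (red) between its nearest measured neighbours (grey), with points for the mean of the 2 arrays and lines joining both arrays. Only *YGL149W* beside *INO80* and *RMD1* beside *NHP10* are beyond 1 on both arrays among the 16 neighbours, each opposite in sign to the subunit gene.

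Likeness to the ATPase gene and to *NHP10* was measured as the Euclidean distance between the pairs of ratios on the 2 arrays. The gene closest to *INO80* was *ARP6*, an actin-related protein gene of SWR1, at a distance of 0.18 (-2.14 on array 1 and -2.15 on array 2). *STE3*, a pheromone receptor gene, followed at 0.19 and *TOR1*, a kinase gene of TORC1, at 0.35. Within a distance of 0.5 there were 5 genes around *INO80* and 24 around *NHP10*. The closest to *NHP10* were *MSI1*, of a histone chaperone, at 0.10, *LIP1*, of ceramide synthase, at 0.14 and *SWS2*, of the mitochondrial ribosome, at 0.16. With 2 points per gene, such a distance says only that the ratios are alike on both arrays.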

How the data were processed

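The deposited table holds a ratio per probe for each of the 2 arrays, taken here as log2. The submitters' processing, and with it the base, centring, background correction and dye normalization, is not given in the sources used here. Base 2 was assumed, since the range of the values (-6.36 to 9.40 on array 2) does not settle it. Column medians were -0.06 and -0.27. Channel intensities were not analysed here, and the number of arrays limits precision.

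Each array was centred on its median. Probes were named through the platform annotation, with symbols updated through a RefSeq gene table of the R64 assembly: of 5100 symbols, 64 were synonyms and 2 were left out. A gene's value on an array is the mean of its probes. Genes within 100 kb of *PIH1* or *RSA1* stayed out of counts over all genes. In R 4.3.3, an intercept was fitted with limma 3.58.1 (lmFit, eBayes) and tested against 0, which ignores variation of the reference pool; the fit was tested on simulated data. Python 3.11.15 with pandas 2.3.3 was used otherwise.

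The members and lists were chosen with earlier results of these data known. Named were all members and shared subunits, members of other lists beyond 1 on both arrays, nearest measured neighbours of the 8 measured members and the 3 genes closest to *INO80* and *NHP10*. *SWR1*, *ISW2*, *MEC1*, *TEL1*, *TAH1* and *HHF2* were added after their values were seen, and *HTZ1* because it had no value. The alternatives were other centrings, scaling, quantile normalization, other ways to combine probes, robust eBayes and leaving out an array.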

Additional observations from a re-analysis of the deposited data

How the results depend on the processing

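The mean ratios of the 8 genes were recomputed under 10 alternatives. The sign changed once in these 80 values: *IES1* stood at -0.35 without array 2, and at 1.20 without array 1. *INO80* ranged from -2.40 to -2.15 and *IES4* from -2.02 to -1.72, while *IES2* ranged from 1.55 to 3.85 and *NHP10* from 0.86 to 3.28, the ends of the last 2 being the single arrays. The Nhp10 module minus the other genes lay between 1.12 (without array 2) and 2.24 (without array 1). The count at or below -1 was 2 in every alternative. Over the 4048 genes this share was 2.03% as centred, 5.29% without array 1 and 2.92% without array 2. The count at or above 1 was 2 as centred (6.4% of the 4048 genes), 6 without array 1 (17.2%) and 2 without array 2 (6.92%). It was 3 with equal median absolute deviations, with quantile normalization and with the probe farthest from 0. For these 3 settings the share over all genes is not given, so nothing is read from the change. Over all genes limma called 456 with equal median absolute deviations and 491 with quantile normalization, with 4 and 5 of the subunit genes among them, and 0 in its other 7 alternatives. Equal median absolute deviations and quantile normalization both give the arrays a common spread, and the part of this in the calls was not tested. No paired analysis was possible because both arrays belong to 1 group. Signal over background was not analysed here.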
